A study of Mus musculus with 11 samples.

Results

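The genes described here belong to the canonical WNT pathway and were measured in mouse embryonic stem (ES) cells. They are the 4 TCF/LEF factors Tcf7, Lef1, Tcf7l1 and Tcf7l2 and 6 target and feedback genes, Axin2, Nkd1, Rnf43, Znrf3, Sp5 and Cdx1. They were chosen by name, with earlier results of these data known. All 10 are among the 29686 gene symbols of the single-cell tables and 8 among the 12588 rows of the bulk table, where Nkd1 and Rnf43 were not analysed.

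The series holds 11 libraries of mouse ES cells. Bulk RNA sequencing with Smart-seq2, on about 1000 cells a library, covered 3 libraries from agarose microgels and 3 from tissue-culture plastic, all of the Rex1GFPd2 line in 2i/LIF. The 5 single-cell libraries were made with inDrop, which captures cells in droplets and tags each molecule with a unique molecular identifier (UMI). E14 cells, called wild type in the labels, gave 3 of them: serum/LIF on plastic, 2i/LIF on plastic, and serum/LIF in gel. The other 2 held cells with the genotypes PGHIGH and PGLOW, on plastic in serum/LIF, labelled as overexpressing plakoglobin (Jup) at a high and a low level from the constitutive CAG promoter. They are called the libraries labelled JupHigh and JupLow. Their parent line, and whether each is 1 clone, are not given in the sources used here. Rex1GFPd2 is a reporter line, with a destabilised green fluorescent protein made from the Rex1 locus. LIF is in all 11 libraries. 2i adds inhibitors of MEK and of GSK3, so the GSK3 inhibitor is in both arms of the bulk comparison and in 1 single-cell library only.

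GSK3 is the kinase of the destruction complex, which marks beta-catenin for degradation. WNT ligands, or a GSK3 inhibitor, let beta-catenin build up and bind TCF/LEF factors on DNA. In mouse ES cells Tcf7l1 acts mainly as a repressor of naive pluripotency genes, and beta-catenin relieves that repression. Plakoglobin is a close relative of beta-catenin that works mainly in cell junctions and can also bind TCF/LEF factors. Axin2, Nkd1, Rnf43 and Znrf3 restrain the pathway that induces them.

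To show where a TCF/LEF site could lie, the promoter windows of the members were searched for the motif CTTTGAT or CTTTGAA on both strands. The windows are those of RefSeq on GRCm38.p6, from 250 bases before to 50 bases after a transcript start. Of the 10 members, 8 had an entry, with 14 windows in all, and 1 window held the motif. That window was of Sp5, a transcription factor gene, with CTTTGAT on the forward strand and its first base at position -104. Among all 32851 windows, 8.65% held the motif. The letters were not in the Axin2 windows, which says nothing of sites elsewhere. The 250 bases before the start are shown for these 2 target genes because they hold most of the target UMIs that the single-cell results rest on. The motif is in capitals, and both runs read 5′ to 3′ on the plus strand, from chr2:70474673-70474922 for Sp5 and chr11:108920099-108920348 for Axin2.
Sp5: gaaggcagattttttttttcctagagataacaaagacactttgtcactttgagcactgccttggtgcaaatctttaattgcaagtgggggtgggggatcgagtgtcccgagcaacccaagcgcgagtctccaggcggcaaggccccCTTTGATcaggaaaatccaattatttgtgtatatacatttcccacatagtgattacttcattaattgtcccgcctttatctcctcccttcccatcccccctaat
Axin2: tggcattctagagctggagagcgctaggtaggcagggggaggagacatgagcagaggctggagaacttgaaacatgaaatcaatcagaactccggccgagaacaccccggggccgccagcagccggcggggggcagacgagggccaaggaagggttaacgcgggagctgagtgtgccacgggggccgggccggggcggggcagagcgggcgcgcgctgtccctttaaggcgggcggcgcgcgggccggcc

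The Sp5 stretch has a GC content of 46.0% and the Axin2 stretch one of 69.2%.

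The bulk values are counts that the authors divided by 1 factor a library, and the reads recovered from them came to between 707718 and 866721 in gel and between 637235 and 2583256 on plastic. Single-cell values are UMIs summed over the cells of a library, scaled to 1000000 UMIs of those cells (CPM). Barcodes with at least 1000 UMIs were taken as cells. They numbered 725 in wild-type serum/LIF, 112 in wild-type serum/LIF gel, 1200 in JupLow, 2153 in JupHigh and 2889 in wild-type 2i/LIF, with median depths from 1732 to 2465 UMIs, and no cell barcode was shared between libraries. Jup itself stood at 47.8 CPM (95% Poisson interval 41.5 to 54.8) in JupHigh, 37.9 (31.1 to 45.7) in JupLow and 36.7 (28.8 to 46.0) in wild-type serum/LIF. In wild-type 2i/LIF it stood at 46.7 (42.2 to 51.6). All of these intervals overlapped, so the Jup UMIs did not clearly set JupHigh or JupLow apart from the wild-type libraries on plastic. Whether transcripts of the transgene are counted under Jup is not given in the sources used here, so these UMIs do not check the labels. The wild-type serum/LIF table stood apart in another way. It held 0 UMIs of Sox2 and of Ctbp2 and 19 of Ctnnb1, against 597, 666 and 1652 in JupLow. Of 5095 genes at 30 CPM or more in JupLow, 186 were over 8-fold lower in that table. They were 113 of 253 genes with another gene on the same strand over their last 1000 bases, 68 of 854 with one on the opposite strand only, and 5 of 3988 with none. For 9 of the 10 members no other gene lies over those last 1000 bases in GENCODE M21, and for Tcf7 one does (Gm26551, same strand). Axin2, Lef1 and Tcf7l1 share 209, 1208 and 179 exon bases farther up with an antisense gene, and whether the counting used strand is not given in the sources used here. The comparisons of JupHigh with JupLow and with 2i/LIF do not use that table.

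Each single-cell group is 1 library, so no test between groups was possible. Intervals of levels are exact Poisson intervals, and intervals of ratios are exact conditional ones. Both cover counting error only and not the spread between cultures. The comparisons of 2i/LIF, JupHigh, JupLow and gel with wild-type serum/LIF on plastic share that 1 library. A member is called past 2-fold where it differs by more than 2-fold and reaches 10 CPM in the higher library. Nothing in the labels says that the 3 bulk libraries of a group came from separate cultures, so the p-values of the bulk test measure only the spread between these libraries.

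In 2i/LIF, 3 target genes stood well above wild-type serum/LIF: Axin2, Sp5 and Cdx1. That library holds both the GSK3 and the MEK inhibitor, and their parts cannot be told apart. The same 3 were high in JupHigh, which had no inhibitor, and low in JupLow. In gel Axin2 and Sp5 were below both, by intervals that did not overlap, while the level of Cdx1 there was not resolved. The TCF/LEF factors did not move as a group, and Lef1 was lower in 2i/LIF but not in JupHigh. Of the 10 members, 8 reached 10 CPM for the comparison of 2i/LIF with serum/LIF, and 3 of them were past 2-fold higher and 1 past 2-fold lower. Over all 10110 genes in range, 12.3% were past 2-fold higher and 18.0% lower (30.3% in all), with a median log2 ratio of -0.044. The median of the 8 members was 0.23.

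**Figure D1:**
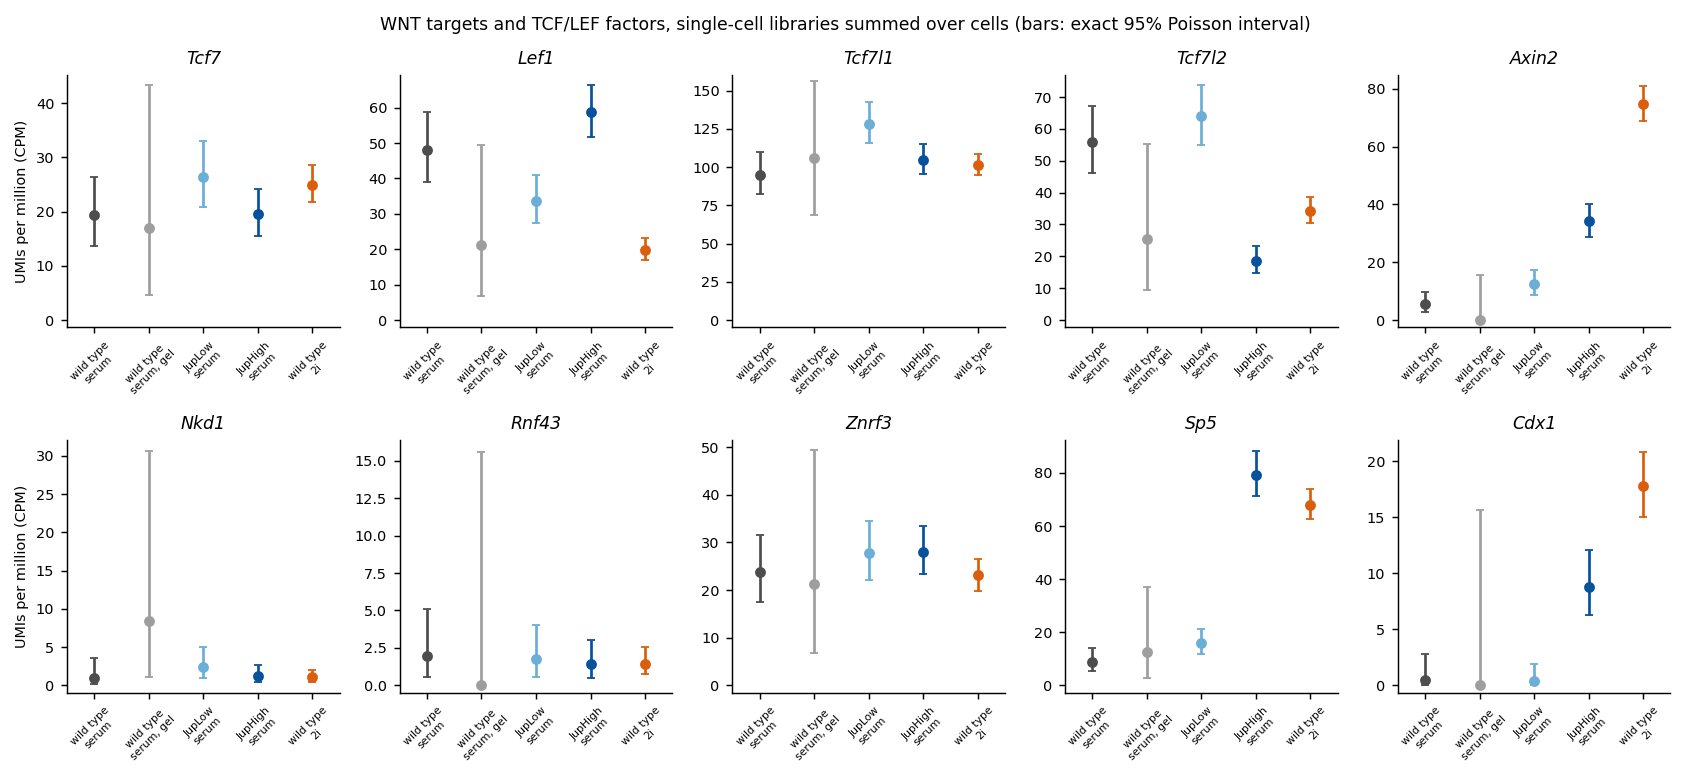
Level of each gene in CPM (linear axis from 0) in the 5 single-cell libraries; a point is 1 library and the bar its exact 95% Poisson interval. Axin2, Sp5 and Cdx1 are high in JupHigh and 2i, while Tcf7l1 lies between 95.2 and 128.5 CPM in all 5.

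Axin2 (chr11:108920349-108950783 in GRCm38, plus strand, a protein-coding gene as are all 10) encodes a scaffold of the destruction complex and is the classical readout of beta-catenin activity. It stood at 5.45 CPM in wild-type serum/LIF (11 UMIs), 0 in gel, 12.5 in JupLow (36 UMIs), 34.1 in JupHigh (147 UMIs) and 74.7 in 2i/LIF (619 UMIs). The 2i/LIF library was highest, JupHigh came next, and their intervals (69.0 to 80.8 and 28.8 to 40.1 CPM) did not overlap with each other or with those of the other 3 libraries. The log2 ratio of 2i/LIF over serum/LIF was 3.78 (2.93 to 4.79), and that of JupHigh over JupLow was 1.45 (0.91 to 2.02). Against 2i/LIF, JupHigh was lower by a log2 ratio of -1.13 (-1.40 to -0.87), so JupHigh reached less than the level seen in 2i/LIF. In gel the count of 0 in 236195 UMIs allows up to 12.7 CPM by a limit of 3 counts (15.6 by the exact interval), which includes the wild-type plastic level, and a difference was not detectable at this depth.

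Sp5 (chr2:70474923-70477729, plus strand) encodes a zinc-finger repressor of the SP family that is induced by WNT in many tissues. Its levels were 8.92 CPM in wild-type serum/LIF (18 UMIs), 12.7 in gel (3 UMIs), 16.0 in JupLow (46 UMIs), 79.3 in JupHigh (342 UMIs) and 68.1 in 2i/LIF (564 UMIs). JupHigh and 2i/LIF formed a high pair and the other 3 a low group with overlapping intervals. The log2 ratio was 2.93 (2.26 to 3.70) for 2i/LIF over serum/LIF, 3.15 (2.47 to 3.92) for JupHigh over wild type and 2.31 (1.86 to 2.79) for JupHigh over JupLow. JupHigh was slightly above 2i/LIF, by 0.22 (0.023 to 0.42). This order is the opposite of that of Axin2, for which 2i/LIF was the higher of the pair.

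Cdx1, a caudal-type homeobox gene of the posterior embryo and a direct WNT target, was seen in at most 1 UMI in each library outside the high pair. It had 1 UMI in wild-type serum/LIF, 0 in gel, 1 in JupLow, 38 in JupHigh (8.82 CPM) and 147 in 2i/LIF (17.7 CPM). The ratio of 2i/LIF over serum/LIF rests on that 1 UMI, and its log2 value of 5.16 has an interval from 2.66 to 10.5. In gel the count of 0 leaves its level unresolved. JupHigh over JupLow was 4.67 (2.10 to 10.01), below the 10 CPM needed to be counted. Between the high pair, JupHigh was lower by a log2 ratio of -1.01 (-1.56 to -0.49).

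Of the other feedback genes, only Znrf3 had the counts to be compared with Axin2, and it did not follow it. Znrf3 (chr11:5276324-5444847, minus strand), a ubiquitin ligase that removes Frizzled receptors from the cell surface, stood at 23.8 CPM in wild-type serum/LIF, 21.2 in gel, 27.8 in JupLow, 28.1 in JupHigh and 23.1 in 2i/LIF. All 5 intervals overlapped, and the log2 ratio of 2i/LIF over serum/LIF was -0.045 (-0.51 to 0.44), which leaves out a change as large as 2-fold either way. Its relative Rnf43, a ligase of the same kind, was seen in 4, 0, 5, 6 and 12 UMIs in the same order of libraries. Nkd1, which binds Dishevelled and dampens the signal, was seen in 2, 2, 7, 5 and 9 UMIs. The measured levels of Rnf43 and Nkd1 were under 10 CPM in all 5 libraries, though their gel intervals reached 15.6 and 30.6 CPM. Differences between libraries were not detectable at this depth.

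Single cells rarely showed more than 1 UMI of these genes, so shares of cells were compared after thinning each cell to 1000 UMIs. The share with a UMI of Axin2, Sp5 or Cdx1 was 1.38% (95% Clopper-Pearson interval 0.66 to 2.52) in wild-type serum/LIF, 0.89% in gel (1 of 112 cells), 2.67% (1.83 to 3.74) in JupLow, 10.03% (8.80 to 11.4) in JupHigh and 13.3% (12.1 to 14.6) in 2i/LIF. The order was that of the Axin2 levels, with JupHigh again between JupLow and 2i/LIF. Without thinning, Axin2 alone was seen in 1.52% of wild-type serum/LIF cells, 2.83% of JupLow, 6.55% of JupHigh and 18.1% of 2i/LIF cells. No cell type here is known to lack these genes, so the barcodes under 500 UMIs served as the background. In them Axin2 stood at 5.53 CPM in wild-type serum/LIF, 11.96 in JupLow and 41.4 in JupHigh, near the level in the cells of the same library. In gel such barcodes held 4 Axin2 UMIs (21.9 CPM), where the cells held 0. The 2i/LIF table held 1 such barcode, so no background level was measured there. The share of free RNA within each library's counts was therefore not separated from expression in the cells.

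Axin2 and Sp5 were rarely seen in the same cell. Among the 183 thinned 2i/LIF cells with Axin2, 7.10% (3.84 to 11.8) also held Sp5, against 6.06% (5.19 to 7.03) of those without. In JupHigh the shares were 10.4% (4.30 to 20.4) and 6.42% (5.41 to 7.56). Both pairs of intervals overlap, which at this depth does not show that the genes vary independently.

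The 4 TCF/LEF factors are the DNA-binding partners of beta-catenin. Tcf7l1 (chr6:72626378-72789254, minus strand), the repressor, varied least among them. It stood at 95.2 CPM in wild-type serum/LIF, 105.8 in gel, 128.5 in JupLow, 104.9 in JupHigh and 101.6 in 2i/LIF. Only JupLow stood out, with log2 ratios of 0.43 (0.18 to 0.69) over wild type and of -0.29 (-0.50 to -0.092) for JupHigh over JupLow. The 2i/LIF over serum/LIF ratio was 0.095 (-0.13 to 0.33), so a change of 2-fold lies outside its counting interval. Scaling by TMM factors raised it to 0.35 (0.12 to 0.58), since these factors shift every gene by 0.25 in that comparison, and moved JupHigh over JupLow to -0.19 (-0.39 to 0.015).

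Lef1 (chr3:131110471-131224356, plus strand), mostly an activator and itself a WNT target in many tissues, stood at 48.1 CPM in wild-type serum/LIF, 21.2 in gel (5 UMIs), 33.7 in JupLow, 58.7 in JupHigh and 19.9 in 2i/LIF. On plastic it was lowest in 2i/LIF, which holds both the GSK3 and the MEK inhibitor, and had its highest value in JupHigh. Those 2 intervals (17.0 to 23.2 and 51.7 to 66.4) lay far apart, while the gel interval (6.87 to 49.4) held that of 2i/LIF. The log2 ratio was -1.27 (-1.64 to -0.89) for 2i/LIF over serum/LIF and 1.56 (1.27 to 1.85) for JupHigh over 2i/LIF. Against wild type in serum/LIF, JupHigh was at 0.29 (-0.055 to 0.64), and against JupLow at 0.80 (0.46 to 1.15). Of the members, Lef1 set the JupHigh and 2i/LIF libraries apart by the widest ratio.

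Tcf7 (chr11:52252371-52283014, minus strand), mostly an activator, was found at 19.3 CPM in wild-type serum/LIF, 16.9 in gel, 26.4 in JupLow, 19.5 in JupHigh and 25.0 in 2i/LIF. All 5 intervals overlapped, and in 2i/LIF over serum/LIF the log2 ratio was 0.37 (-0.13 to 0.90).

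Tcf7l2 (chr19:55741820-55933654, plus strand), which can activate or repress, stood at 56.0 CPM in wild-type serum/LIF, 25.4 in gel (6 UMIs), 63.9 in JupLow, 34.3 in 2i/LIF and 18.6 in JupHigh. JupHigh was the lowest on plastic, with log2 ratios of -1.78 (-2.18 to -1.40) against JupLow and -1.59 (-2.03 to -1.17) against wild type. The gel interval (9.32 to 55.3 CPM) held that of JupHigh (14.7 to 23.1). Over serum/LIF, 2i/LIF was at -0.71 (-1.03 to -0.38).

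Where these Tcf7l2 UMIs lay within the libraries was uneven. Cells with at least 5 UMIs of 9 endoderm markers made up 82 of 725 cells in wild-type serum/LIF, 50 of 1200 in JupLow, 11 of 2153 in JupHigh, 21 of 2889 in 2i/LIF and 2 of 112 in gel. Any of the 9 can supply those UMIs, so the class need not hold the same kind of cell in each library. These UMIs were counted without thinning, so deeper cells reach 5 more easily. The class was 0.73% of 2i/LIF cells and held 1.45% of their UMIs. For JupLow those shares were 4.17% and 6.89%, for wild-type serum/LIF 11.3% and 14.4%, and for JupHigh 0.51% and 0.54%. Tcf7l2 reached 199.2 CPM (151.3 to 257.5) in the endoderm-marker cells of wild-type serum/LIF and 31.9 (24.0 to 41.5) in its other cells. In JupLow it reached 196.7 (139.9 to 268.9) and 54.1 (45.7 to 63.7). In JupHigh the values were 255.8 (93.9 to 556.7, from 6 UMIs) and 17.3 (13.6 to 21.7). In 2i/LIF they were 49.9 (18.3 to 108.5) and 34.1 (30.2 to 38.3), with overlapping intervals. With those cells left out of every library, an alternative chosen after seeing the data, the 2i/LIF over serum/LIF log2 ratio turned to 0.096 (-0.33 to 0.54), and JupHigh over wild type became -0.88 (-1.41 to -0.35). JupHigh over JupLow changed little, to -1.65 (-2.07 to -1.24).

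**Figure D2:**
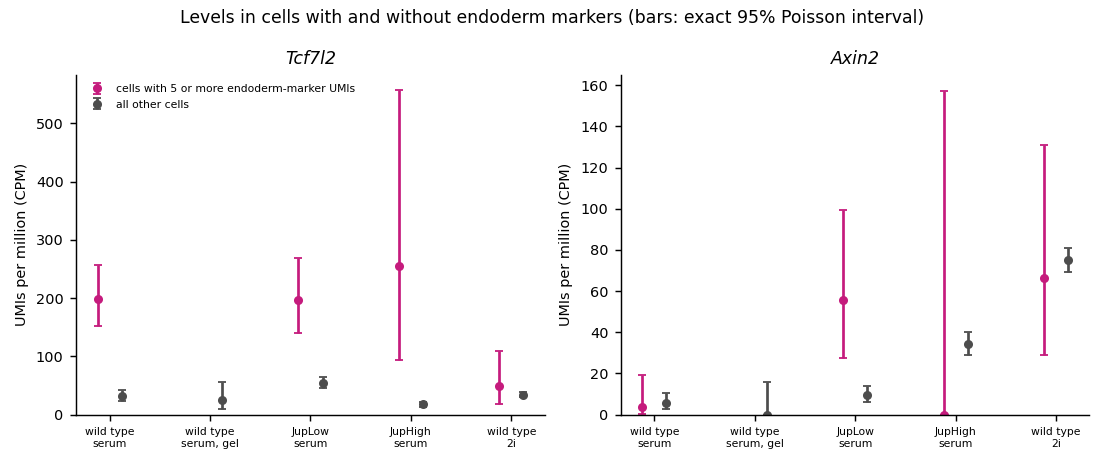
Levels of Tcf7l2 (left) and Axin2 (right) in CPM in cells with 5 or more endoderm-marker UMIs and in all other cells of each library, with exact 95% Poisson intervals; the 2 such cells in gel are not drawn. Tcf7l2 is near 200 CPM in the endoderm-marker cells of wild-type serum/LIF and JupLow and under 70 in the other cells of every library.

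Of the other members, Axin2 differed between the same cells and the rest in 1 library, and Lef1 and Znrf3 did so in another. In JupLow they held 11 of its 36 Axin2 UMIs, or 55.5 CPM (27.7 to 99.3) against 9.33 (6.04 to 13.8) in the rest. In wild-type serum/LIF they held 1 of 11. In 2i/LIF they held 8 of 619, and its other cells stood at 74.8 CPM. Lef1 was low in the endoderm-marker cells of wild-type serum/LIF, at 3.434 CPM (0.08695 to 19.14) against 55.59 (45.03 to 67.89) in the rest. Znrf3 stood there at 0 CPM (0 to 12.67) against 27.8 (20.5 to 36.86). Within each of the other libraries the intervals of the endoderm-marker cells and the rest overlapped for both genes. Summed over the 9 endoderm markers, the libraries held 1472 CPM in wild-type serum/LIF, 418.3 in JupLow, 338.7 in gel, 243.7 in 2i/LIF and 218.5 in JupHigh, and of the 9 markers 1 was at 0 in 2i/LIF, 2 in gel and 0 in the other libraries. Sparc was the largest part of each sum, with 927.7 CPM in wild-type serum/LIF, 369.7 in JupLow and 206.2 in 2i/LIF. Gata6 stood at 63.9, 5.56 and 0 CPM in the same order, and Gata4 at 28.7, 1.74 and 2.05. The class in JupLow and 2i/LIF may thus rest mainly on Sparc. Without the endoderm-marker cells, Tcf7l2 in JupLow over wild type went from 0.19 (-0.15 to 0.54) to 0.76 (0.31 to 1.24), and Lef1 in 2i/LIF over serum/LIF was -1.47 (-1.84 to -1.09). The part of these cells in the ratios of the pathway lists was not tested.

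JupHigh and JupLow carry the same promoter and medium and are labelled by different plakoglobin levels. Each is 1 library, so any difference of line, culture or library goes with that label, and their parts cannot be told apart. Of 7 members in range, 2 were past 2-fold higher in JupHigh (Axin2 and Sp5) and 1 lower (Tcf7l2), with a median of 0.014. Over all 9309 genes in range 3.32% were higher and 9.98% lower (13.3% in all), with a median of -0.13. Markers of other cell types also differed between these libraries. The 5 neural markers summed to 11.6 CPM in JupHigh (0 of 5 at 0) and 93.1 in JupLow (1 at 0), with Nes at 3.48 and 86.2 and Pax6 at 6.73 and 5.21. The 6 fibroblast markers summed to 4.87 and 25.4 CPM, with 2 at 0 in each. In 2i/LIF and wild-type serum/LIF the neural sums were 7.85 (1 at 0) and 62.9 CPM (2 at 0), and the fibroblast sums 2.90 and 39.2 CPM (2 at 0 in each). In either pair of libraries only 1 of the 6 fibroblast markers reached 10 CPM, so these sums do not show a difference of the whole list. The part of the neural and fibroblast markers in the ratios between any of these 4 libraries was not tested. Against wild type in serum/LIF, JupHigh had the same 2 genes past 2-fold higher and Tcf7l2 lower, of 7 in range, where the shares over all genes were 8.67% and 17.3% (26.0% in all). Without the endoderm-marker cells the count was 2 of 7, since Tcf7l2 was then within 2-fold. JupLow against wild type had 1 of 7 past 2-fold, Axin2 at 1.20 (0.19 to 2.32), where 6.68% of all genes were higher and 8.75% lower (15.4% in all). Sp5 was at 0.84 (0.027 to 1.72). Without the endoderm-marker cells those ratios were 0.69 (-0.42 to 1.91) and 0.88 (-0.030 to 1.87), so neither interval then excluded no change.

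Set directly against 2i/LIF, JupHigh had 1 of 8 members in range past 2-fold higher (Lef1) and 2 lower (Axin2 and Cdx1). Over all 9060 genes in range 4.66% were higher and 7.19% lower (11.8% in all). Medium and genotype differ together in this pair, so their parts cannot be told apart.

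In serum/LIF, gel against plastic put 2 of 6 members in range past 2-fold lower, Lef1 at -1.18 (-2.84 to 0.089) and Tcf7l2 at -1.14 (-2.62 to 0.026), while 14.7% of all 10068 genes were past 2-fold lower, 10.9% higher and 25.7% either way. With cells of at least 1000 UMIs every member interval in this comparison included 0. The gel library has 112 cells and 50 UMIs of all 10 members together, so its depth resolves little. A few alternatives gave an interval that left out 0: Tcf7l2 at -1.27 with barcodes from 500 UMIs and -1.23 with every barcode, Lef1 at -1.52 without barcodes above 3 times the median depth and -1.38 without endoderm-marker cells, and Sp5 at 1.25 with every barcode.

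**Figure D3:**
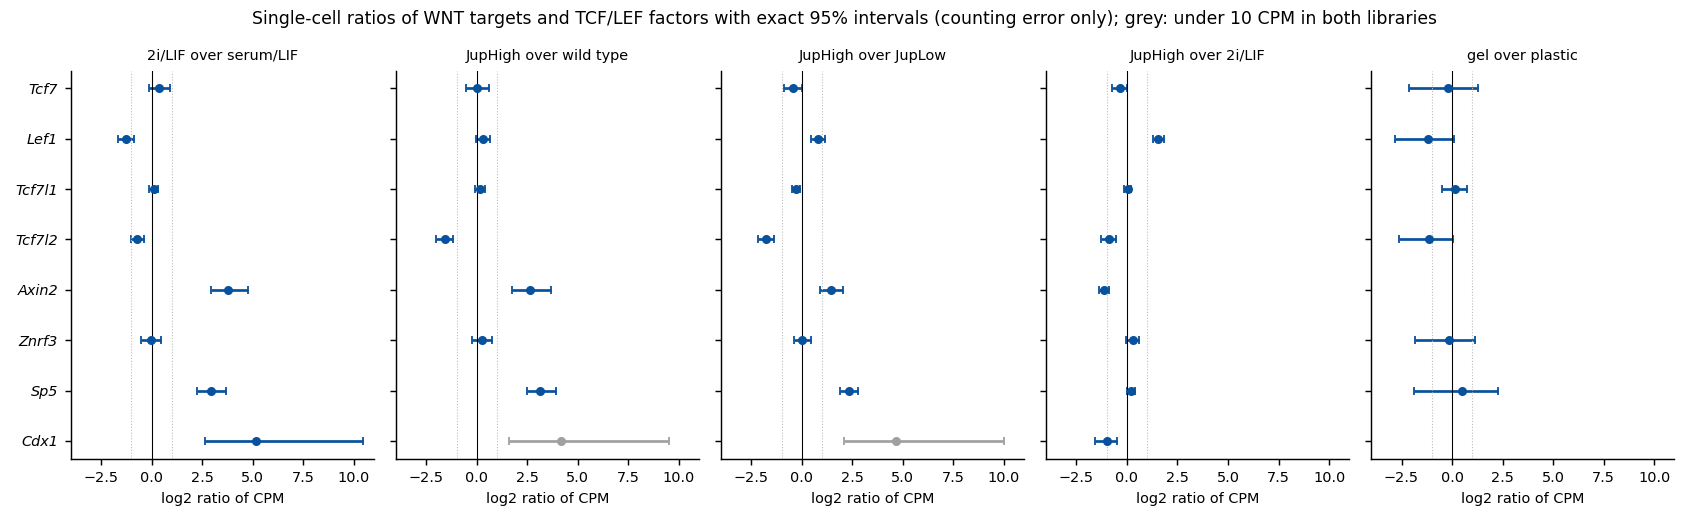
Log2 ratio of CPM for 8 genes in 5 single-cell comparisons, with exact 95% intervals that cover counting error only; dotted lines mark 2-fold, grey points are under 10 CPM in both libraries, and genes at 0 in gel have no point. Axin2, Sp5 and Cdx1 lie right of 0 in the first 3 panels, Lef1 lies left of 0 in the first and right of it in JupHigh over 2i/LIF, and every gel interval crosses 0.

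In bulk, with the GSK3 inhibitor present on both sides, Tcf7, Tcf7l1, Sp5 and Cdx1 were higher in gel than on plastic, and Znrf3 was lower. Of the 10 members, 8 were in the table and 6 passed the filter on low reads. Of those 6, 4 were called higher in gel and 1 lower by limma with Benjamini-Hochberg adjustment at 0.05 over all 7878 genes tested. The 4 called higher would not have passed that filter on their plastic libraries and entered through gel. This count, the adjusted p-values of those 4 and the median below therefore do not stand apart from the filter. Genes of the other lists could enter the bulk test through 1 group in the same way. Among the called genes named below, Jup, Aes, Pygo2, Axin1, Ryk, Lrp6, Tbx3 and Lama1 entered through gel and Wls through plastic. Over all genes 18.3% were called higher and 18.6% lower (36.9% in all), so calls were common, and the median log2 fold change was -0.022 against 1.24 over the 6. All bulk fold changes were taken on log2(value + 0.5), so those of genes with low values come out too small. In bulk, fewer cells of a type and less RNA per cell cannot be told apart.

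Tcf7 had deposited values of 31.6, 29.5 and 23.4 in gel and 9.56, 12.9 and 9.11 on plastic. The gel libraries lay above all plastic ones, as for 24.4% of all genes tested (25.0% lay below and 49.5% did not overlap either way), and the log2 fold change was 1.38 (SE 0.28, limma adjusted p = 0.00103). Tcf7l1 had 36.1, 18.4 and 22.0 in gel and 6.23, 9.78 and 7.59 on plastic. Every gel library was above every plastic one, by 1.60 (SE 0.34, limma adjusted p = 0.00128). In these libraries both factors, the activator and the repressor alike, were higher in gel. Both entered the test through gel, so their adjusted p-values carry the limit given above.

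Tcf7l2 had 14.7, 12.3 and 17.9 in gel and 17.9, 16.4 and 15.2 on plastic. The groups overlapped, and the log2 fold change of -0.15 (SE 0.29, limma adjusted p = 0.716) was within the spread of the libraries. Lef1 was below the filter, with 1, 1 and 3 reads in gel and 5, 7 and 1 on plastic, too few to compare.

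Among the targets, Sp5 had 23.7, 13.5 and 28.9 in gel and 7.07, 6.65 and 4.55 on plastic, a log2 fold change of 1.73 (SE 0.37, limma adjusted p = 0.00156). Cdx1 had 15.8, 17.2 and 17.9 in gel and 9.56, 6.26 and 7.59 on plastic. Its groups did not overlap, and the log2 fold change was 1.09 (SE 0.34, limma adjusted p = 0.0176). The Cdx1 call is the least secure of the 5, since the adjusted p was 0.0536 with DESeq2 on the recovered reads and 0.0831 with limma without plastic replicate 2. Znrf3 went the other way, with 37.2, 25.8 and 30.2 in gel and 66.5, 57.9 and 47.1 on plastic, a fold change of -0.87 (SE 0.20, limma adjusted p = 0.00272). A feedback gene whose 5 single-cell intervals overlapped thus fell here, while 2 other targets rose.

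Axin2 was below the filter but not alike in the groups. Its recovered reads were 18, 9 and 15 in gel and 5, 0 and 0 on plastic, or values of 20.3, 11.1 and 20.6 against 2.08, 0 and 0. Every gel library was above every plastic one. With no filter beyond 1 read its log2 fold change was 4.31 (limma adjusted p = 0.000172), a size that depends on the pseudocount. The near absence of Axin2 from the plastic libraries stands beside the 74.7 CPM of the single-cell 2i/LIF library, also on plastic. The cell line and the assay differ between those libraries, and their parts cannot be told apart.

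**Figure D4:**
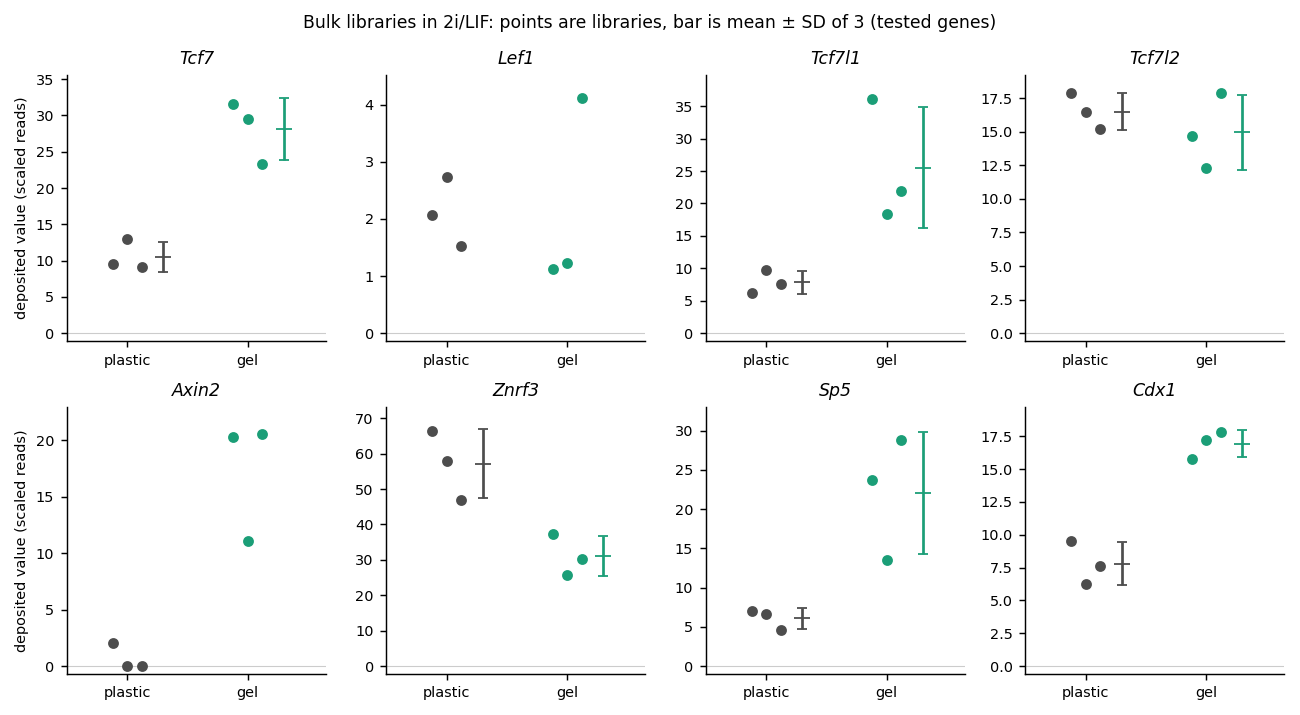
Deposited bulk values (reads scaled by the authors, linear axis from 0) of the 8 listed genes in 3 plastic and 3 gel libraries in 2i/LIF; points are libraries and bars the mean ± SD of 3, drawn for the 6 tested genes. Gel points lie above all plastic points for Tcf7, Tcf7l1, Axin2, Sp5 and Cdx1 and below them for Znrf3; for Lef1 and Tcf7l2 the groups overlap.

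Of 8 ES cell markers, 4 were called higher in gel, 2 lower (Nanog and Zfp42) and 2 were not called, where 18.3% of all genes were called higher and 18.6% lower. Their summed value ran from 7787 to 7995 in gel and from 5898 to 6757 on plastic, and most of it was that of Dppa5a, with a mean of 5545 in gel and 3879 on plastic. Of 9 endoderm markers 2 were tested and limma called 1 higher in gel, Lama1 (0.99, SE 0.29, adjusted p = 0.0117), which DESeq2 did not call. The part of these differences in the calls was not tested, and 0 of 6 fibroblast markers were in the table. Depth also differed, with the 2 deepest libraries on plastic. With all libraries thinned to the shallowest, 3 members (Tcf7, Tcf7l1 and Znrf3) passed the filter and all 3 were called. Sp5 and Cdx1 did not pass, so their calls could not be checked at equal depth.

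The surrounding pathway was described from lists chosen with earlier results of these data known. Of 8 naive pluripotency genes known as targets of Tcf7l1 repression, all 8 were past 2-fold higher in 2i/LIF than in serum/LIF (median 2.44, 12.3% over all genes) and all 8 in JupHigh than in JupLow (median 2.02, 3.32% over all genes). JupLow against wild type had 1 of 7 in range past 2-fold, with a median of 0.37, where 15.4% of all genes were past 2-fold. Gel against plastic had 0 of 7, with a median of 0.0074, where 25.7% of all genes were. The transcription factor Tfcp2l1 reached 255.8 CPM in 2i/LIF, 204.6 in JupHigh, 28.8 in JupLow and 21.8 in wild-type serum/LIF. Nanog, a core factor of the naive network, followed with 539.3, 449.8, 92.4 and 82.8 CPM. Tcl1, a co-activator of AKT, stood at 75.8, 36.0, 9.03 and 8.92 CPM. These genes were high in the same 2 libraries as Axin2, Sp5 and Cdx1. Tcf7l1 itself stood at 101.6 CPM in 2i/LIF, 104.9 in JupHigh, 128.5 in JupLow and 95.2 in wild-type serum/LIF. Its protein and its binding were not measured, and a link between it and these genes was not tested.

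**Figure D5:**
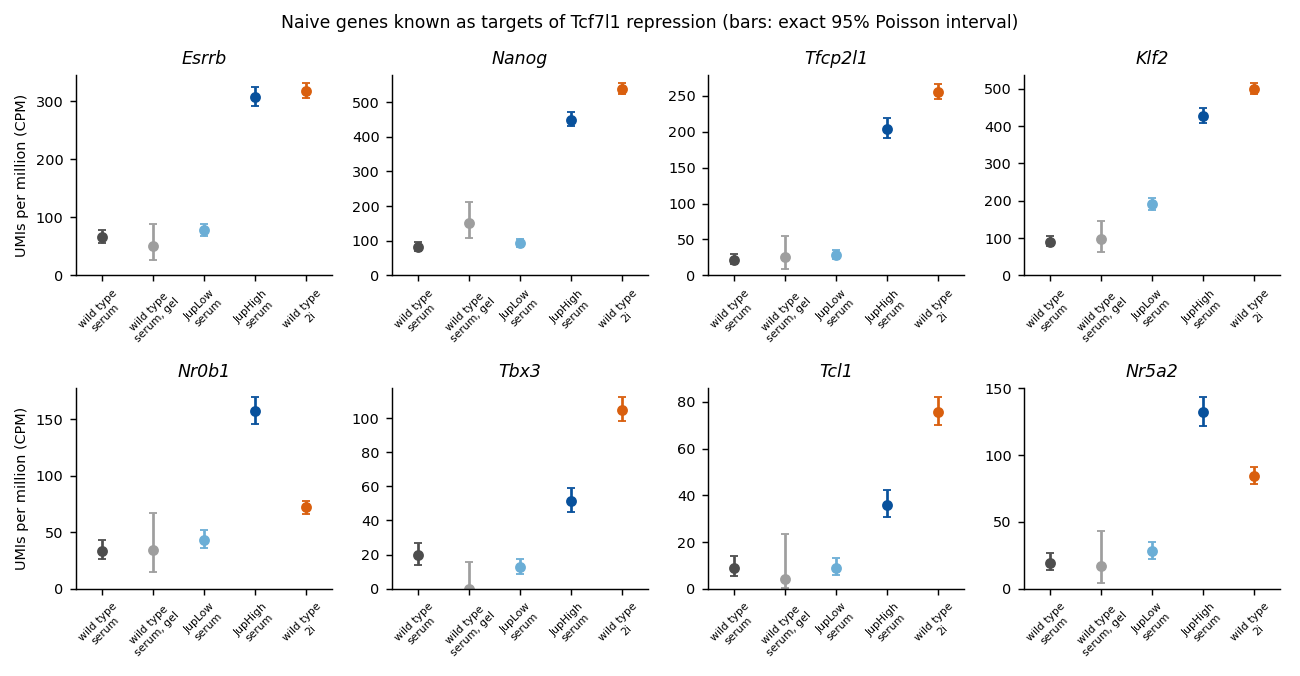
Level in CPM of 8 naive pluripotency genes in the 5 single-cell libraries, with exact 95% Poisson intervals. All 8 are higher in JupHigh and in 2i than in the 3 other libraries; Nr0b1 and Nr5a2 are highest in JupHigh and Tbx3 and Tcl1 in 2i.

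In bulk, 5 of the same 8 naive genes were called higher in gel and 1 lower, with a median of 0.81, where 18.3% of all genes were called higher and 18.6% lower (36.9% in all). Klf2 rose by a log2 fold change of 2.08 (SE 0.20), Esrrb by 1.55 (SE 0.14) and Tbx3 by 1.42 (SE 0.32), while Nanog fell by 0.34 (SE 0.091) on the log2 scale, each past the limma threshold.

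Of 13 genes of secreted inhibitors in the tables, 3 of 4 in range were past 2-fold higher and 1 lower in 2i/LIF than in serum/LIF (12.3% and 18.0% over all genes). In JupHigh over 2i/LIF 3 of 3 in range were lower, where 7.19% of all genes were. Notum, an enzyme that removes the lipid from WNT ligands and is a feedback target, stood at 108.2 CPM in 2i/LIF, 47.1 in JupHigh, 16.0 in JupLow and 7.43 in wild-type serum/LIF, the same order as Axin2. Apcdd1, a membrane inhibitor, was at 17.5 CPM in 2i/LIF but 5.10 in JupHigh and 5.56 in JupLow. Dkk3 was at 32.7 CPM in wild-type serum/LIF and under 2 CPM in 2i/LIF, JupHigh and JupLow. In bulk, 2 of 14 were tested and 1 was called (36.9% over all genes), Sfrp1, which binds WNT ligands (log2 fold change 2.19, SE 0.20, higher in gel).

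Of the ligand and secretion genes, 1 of 4 in range was past 2-fold higher in 2i/LIF and 2 were lower (12.3% and 18.0% over all genes). Wnt4 had 57 UMIs in wild-type serum/LIF and 74 in JupLow, but 1 in 2i/LIF and 2 in JupHigh. Wnt7b had 28, 38, 2 and 3 UMIs in the same order, and Wnt5b reached 12.1 CPM in 2i/LIF from 5.95 in serum/LIF. Among 18 receptor genes, 2 of 10 in range were past 2-fold higher and 4 lower in 2i/LIF, beside the same shares. The Frizzled gene Fzd5 was at 68.0 CPM in 2i/LIF and 68.2 in JupHigh, against 19.3 in wild-type serum/LIF and 24.7 in JupLow. Ror1, a receptor of the non-canonical branch, went the other way, at 4.47 CPM in 2i/LIF and 6.50 in JupHigh against 17.8 in wild-type serum/LIF and 13.9 in JupLow. Fzd10 was at 43.1 CPM in 2i/LIF, 6.96 in JupHigh, 5.95 in wild-type serum/LIF and 6.60 in JupLow. By limma in bulk, the WNT-loading factor Wls fell by 1.46 (SE 0.30) on the log2 scale in gel, and of 3 receptor genes tested, Ryk (1.00, SE 0.32) and Lrp6 (0.91, SE 0.33) rose and Lgr4 fell by 0.69 (SE 0.16), where 36.9% of all genes were called either way. DESeq2 called 1 of these 3.

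Of 13 destruction complex genes in range, 0 were past 2-fold in 2i/LIF against serum/LIF in single cells, where 30.3% of all genes were. In bulk, 2 of 10 tested were called higher in gel and 2 lower, a share near the 36.9% over all genes. Of these 4, Axin1 (1.71, SE 0.33) and Apc (0.59, SE 0.19) rose, and Gsk3b fell by 1.33 (SE 0.14) and Btrc by 0.96 (SE 0.19) on the log2 scale. Axin1 and Apc are scaffolds of the complex, Gsk3b its kinase and Btrc the ligase adaptor that recognises marked beta-catenin. Of 10 catenin and cofactor genes tested in bulk, 5 were called higher in gel, where 18.3% of all genes were. They were led by Jup (2.74, SE 0.31), the co-repressor Aes (2.48, SE 0.47) and the Pygopus gene Pygo2 (1.42, SE 0.29). Jup, Aes and Pygo2 entered the test through gel, so this count does not stand apart from the filter. In single cells 2 of 13 of this list were past 2-fold higher in 2i/LIF than in serum/LIF, near the 12.3% over all genes. They were Ctnnb1 and Ctbp2, at 19 and 0 UMIs in the wild-type serum/LIF table against 1652 and 666 in JupLow. Between JupHigh and JupLow, Ctnnb1, which encodes beta-catenin, was at 455.6 and 573.9 CPM, a log2 ratio of -0.33 (-0.43 to -0.24).

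A list of 20 other textbook WNT targets was mixed. Of 8 in range, 2 were past 2-fold higher and 5 lower in 2i/LIF than in serum/LIF (12.3% and 18.0% over all genes), with a median of -1.47. In JupHigh over wild type 2 of 8 were higher and 3 lower (8.67% and 17.3% over all genes), with a median of 0.33. The lower ones included Dusp4, Ccnd2 and Id2, which encode a MAP kinase phosphatase, a cyclin and an inhibitor of bHLH factors. Id2 stood at 60.0 CPM in wild-type serum/LIF, 132.4 in JupLow, 13.7 in JupHigh and 4.22 in 2i/LIF. The MEK inhibitor of 2i is in the same library as the GSK3 inhibitor, and their parts cannot be told apart. In bulk, 4 genes of this list were tested and limma called 0 of them, where 36.9% of all genes were called. Of the 4, 3 had an unadjusted limma p under 0.05, and the median log2 fold change was 0.42. On the recovered reads edgeR called 3 of the 4 and DESeq2 0.

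The genes whose levels over the 5 libraries lay closest to Axin2 were Plagl1, Triml1 and Dnajc6, by the distance of centred log2(CPM + 1) among 10854 genes with 10 CPM or more in a library. Plagl1, the closest at a distance of 0.72, stood at 5.45 CPM in wild-type serum/LIF, 0 in gel, 7.64 in JupLow, 30.6 in JupHigh and 44.3 in 2i/LIF. For the flat Tcf7l1 the closest were Cpsf1, Spcs2 and Smim8, with distances from 0.063 to 0.085.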

How the data were processed

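The members and gene lists were chosen with earlier results of these data known. For bulk, the authors deposited a signal, meaning counts divided by 1 factor a library, as judged from the values. Each value was a whole multiple of its library's smallest value to within 0.01 reads (100% of values), so whole reads were recovered. For single cells, the authors deposited whole UMI counts, not normalized. The submitters' processing notes name FastQC, STAR, featureCounts, DESeq2 and Scanpy with mm10 and GRCm38, with no roles. Strand use is not given in the sources used here. The plastic columns of the bulk table carry both a gel and a plastic word, and were taken as plastic because no other group fits.

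The bulk test was limma 3.58.1 under R 4.3.3 (trend, log2(value + 0.5), genes passing edgeR's expression filter on recovered reads, Benjamini-Hochberg over all genes tested). This replaced the count test because the unit is a signal. edgeR 4.0.16 and DESeq2 1.42.0 on recovered reads were alternatives. No pair of replicates differed by as little as sampling noise. For single cells (Python 3.11.15, scipy 1.17.1), barcodes under 1000 UMIs, barcodes with 8 G at both ends, columns without a gene name (0.0051% to 0.50% of UMIs) and 1 line cut off in the gel table were left out, and doublets were not called. Genes at 0 count as at most 3 UMIs. The steps were tested on simulated data.

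Named genes are all 10 members, up to 3 genes of each other list (bulk: the called genes with the largest change; single cells: the largest ratio of 2i/LIF over serum/LIF at 10 CPM or more) and the 3 genes most like Axin2 and Tcf7l1. Apc, Sox2, Dppa5a, Zfp42, Pax6, Nanog in bulk and Ctnnb1 in JupHigh and JupLow were named outside this rule, after their values were seen. Alternatives changed the pseudocount, filter, tool, depth, cell threshold, thinning, scaling, replicates and, added after seeing the data, endoderm-marker cells.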

Additional observations from a re-analysis of the deposited data

How the results depend on the processing

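In single cells, the count of members past 2-fold was 4 for 2i/LIF over serum/LIF and 3 for JupHigh over JupLow under all 7 alternatives. JupLow over wild type, 1 in the report, fell to 0 with barcodes from 500 UMIs, with every barcode, without barcodes above 3 times the median depth and without endoderm-marker cells, and rose to 2 with barcodes from 2000 UMIs and with TMM factors. Gel over plastic, 2 in the report, became 4 from 2000 UMIs, 3 under 2 other alternatives and 1 without endoderm-marker cells. JupHigh over 2i/LIF, 3 in the report, became 1 from 500 UMIs and 2 under 4 other alternatives. JupHigh over wild type, 3 in the report, became 2 without endoderm-marker cells. The cause of these shifts was not tested. Among ratios whose interval left out 0, the one that changed sign was Tcf7l2 in 2i/LIF over serum/LIF, 0.096 without endoderm-marker cells. TMM factors shifted every gene by 0.25 for 2i/LIF, 0.28 for JupHigh and 0.17 for JupLow over wild type, 0.11 for JupHigh over JupLow, and under 0.1 for the other two.

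In bulk, the count of genes called lay between 2188 (DESeq2) and 3158 (edgeR), against 2906. Leaving out 1 library at a time gave 2361 to 2833 genes and 5 to 6 members called (without plastic replicate 2, Cdx1 was lost and Axin2 gained). Members called fell from 5 to 1 with at least 10 reads in all 6 libraries, where 2 were testable, and to 3 with all libraries thinned to the shallowest, where 3 were testable. The labels do not say whether same-numbered libraries were paired. Same-numbered deviations correlated at -0.052, 0.016 and 0.024, beside -0.064 to 0.050 for other pairs. No shared deviation was seen, which cannot decide whether the libraries were paired. With the replicate block 2988 genes and 5 members were called. Axin2, below the filter, had a log2 fold change of 3.92 to 5.10 wherever it could be tested. Depth limits Nkd1, Rnf43 and all of the gel single cells.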
